A study of Homo sapiens with 12 samples.

Results

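The enzymes of glycolysis and of the tricarboxylic acid (TCA) cycle were followed across LNCaP cells given siRNA against serum response factor (SRF) or control siRNA, each with or without androgen. The members were 47 genes picked by symbol. They cover the path from hexokinase to lactate dehydrogenase, the pyruvate dehydrogenase complex with its kinases, and the TCA cycle. A gene was represented by its probe set with the highest mean, and the array's own control probe sets were left out. Of the 47 genes, 45 had a probe set with a single gene symbol and 44 were bright enough to be tested, among 10265 genes tested in all. PDK4, which encodes a pyruvate dehydrogenase kinase, stayed between log2 values of 2.75 and 2.92 on all 12 arrays and was not tested. SDHB and FH, which encode a succinate dehydrogenase subunit and fumarase, were not analysed here. Of the 44 tested genes, 42 lay above a log2 value of 4 on all 12 arrays. PFKFB2 did so on 11 arrays and PFKFB3 on 6.

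The 12 Affymetrix arrays formed 4 groups of 3, which the labels call biological replicates. No label names separate cultures, so a p-value here reflects spread that may be technical. The groups were SRF siRNA with R1881, SRF siRNA with ethanol vehicle, control siRNA with R1881, and control siRNA with ethanol vehicle. R1881, a synthetic androgen, was given at 5 nM for 48 h. All 4 groups share the LNCaP background, a prostate carcinoma line that responds to androgen. All had 48 h of androgen deprivation and a transfection before treatment, which began 42 h after it. A group is thus a transient transfection of a single cell line. SRF is a transcription factor that acts with actin-sensing cofactors, and the study asked which genes depend on both SRF and androgen.

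In glycolysis, hexokinase traps glucose in the cell, phosphofructokinase (PFK) makes the committed step, and pyruvate kinase and lactate dehydrogenase close the path to lactate. The bifunctional PFKFB enzymes make and break fructose 2,6-bisphosphate, the strongest activator of PFK. The pyruvate dehydrogenase complex feeds pyruvate carbon into the TCA cycle, and its kinases (PDK) switch the complex off by phosphorylation. Prostate epithelium is known for secreting citrate in place of oxidising it, and androgen is known to act on this metabolism.

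Values are log2 GCRMA signals, in which a step of 1 is a doubling. A change is a difference of group means with its moderated standard error (SE), and a gene was called when its limma p-value, adjusted over the 10265 genes by the Benjamini-Hochberg method, was under 0.05. Array medians ran from 2.97 to 3.06, and arrays of the same group correlated at 0.996 to 0.998. The luminal markers KLK3, KRT8, KRT18, FOLH1, HOXB13, TMPRSS2 and EPCAM lay above 4 on all 12 arrays. The basal keratins KRT5 and KRT14 and the leukocyte genes PTPRC, CD3E and CD14 stayed at or under 4 on all 12. Other markers did not, as the basal gene ITGA6, the mesenchymal gene VIM and the fibroblast gene COL1A1 lay above 4 on all 12. SRF itself was at 4.89, 4.98 and 4.73 with SRF siRNA and R1881 against 6.50, 6.25 and 6.16 with control siRNA and R1881, a change of -1.44 ± 0.14 (SE; limma adjusted p = 3.31e-06). In vehicle it was at 4.56, 5.06 and 4.58 with SRF siRNA against 5.91, 6.14 and 6.17 with control siRNA, a change of -1.34 ± 0.14 (adjusted p = 7.98e-06). The groups did not overlap under either treatment. In such bulk samples, fewer cells with a transcript and less transcript per cell cannot be told apart.

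R1881 moved single glycolysis genes strongly and in both directions, while of 17 tested TCA cycle genes IDH1 and OGDH alone changed by 1.5-fold or more. The phosphofructokinase activator gene PFKFB2 rose 7.86-fold in SRF-silenced cells and 7.24-fold in control cells, and the hexokinase gene HK1 rose 1.98-fold and 3.23-fold. The muscle-type phosphofructokinase gene PFKM fell by 1.29 in silenced and by 1.98 in control cells on the log2 scale, and the lactate dehydrogenase gene LDHB by 0.87 and 1.49. In silenced cells 11 of the 44 genes rose (25.0%, against 25.5% of all genes tested) and 14 fell (31.8%, against 27.7%). In control cells 8 rose (18.2%, against 26.9% of all genes) and 18 fell (40.9%, against 33.8%). At a change of 1.5-fold or more, 5 members were called higher (all genes 11.7%) and 4 lower (all genes 12.1%) in silenced cells. In control cells 3 were called higher by that much (all genes 13.9%) and 6 lower (all genes 17.1%). Without SRF siRNA vehicle replicate 1, 8 fell in silenced cells, and without SRF siRNA R1881 replicate 1, 9 fell. Of all 10265 genes 5072 and 5048 were then called either way in silenced cells, against 5453 with all arrays. The median change of the members was -0.07 in silenced cells (all genes -0.03) and -0.16 in control cells (all genes -0.05). Leaving out 1 array at a time moved the median in silenced cells to between -0.0748 and -0.0293, with -0.0293 without SRF siRNA vehicle replicate 2. Without SRF siRNA R1881 replicate 1 or 2 it was -0.0461 or -0.0454. The 2 comparisons share no array. In both siRNA states 12 genes fell, which is 12 of the 14 in silenced and of the 18 in control cells. In both 6 genes rose, of the 11 in silenced and the 8 in control cells, while 12 genes were called in neither. The share of all genes tested that were called alike in both siRNA states was not counted. These overlaps are thus not shown to be particular to the members. ALDOC rose in silenced cells but fell in control cells.

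**Figure D1:**
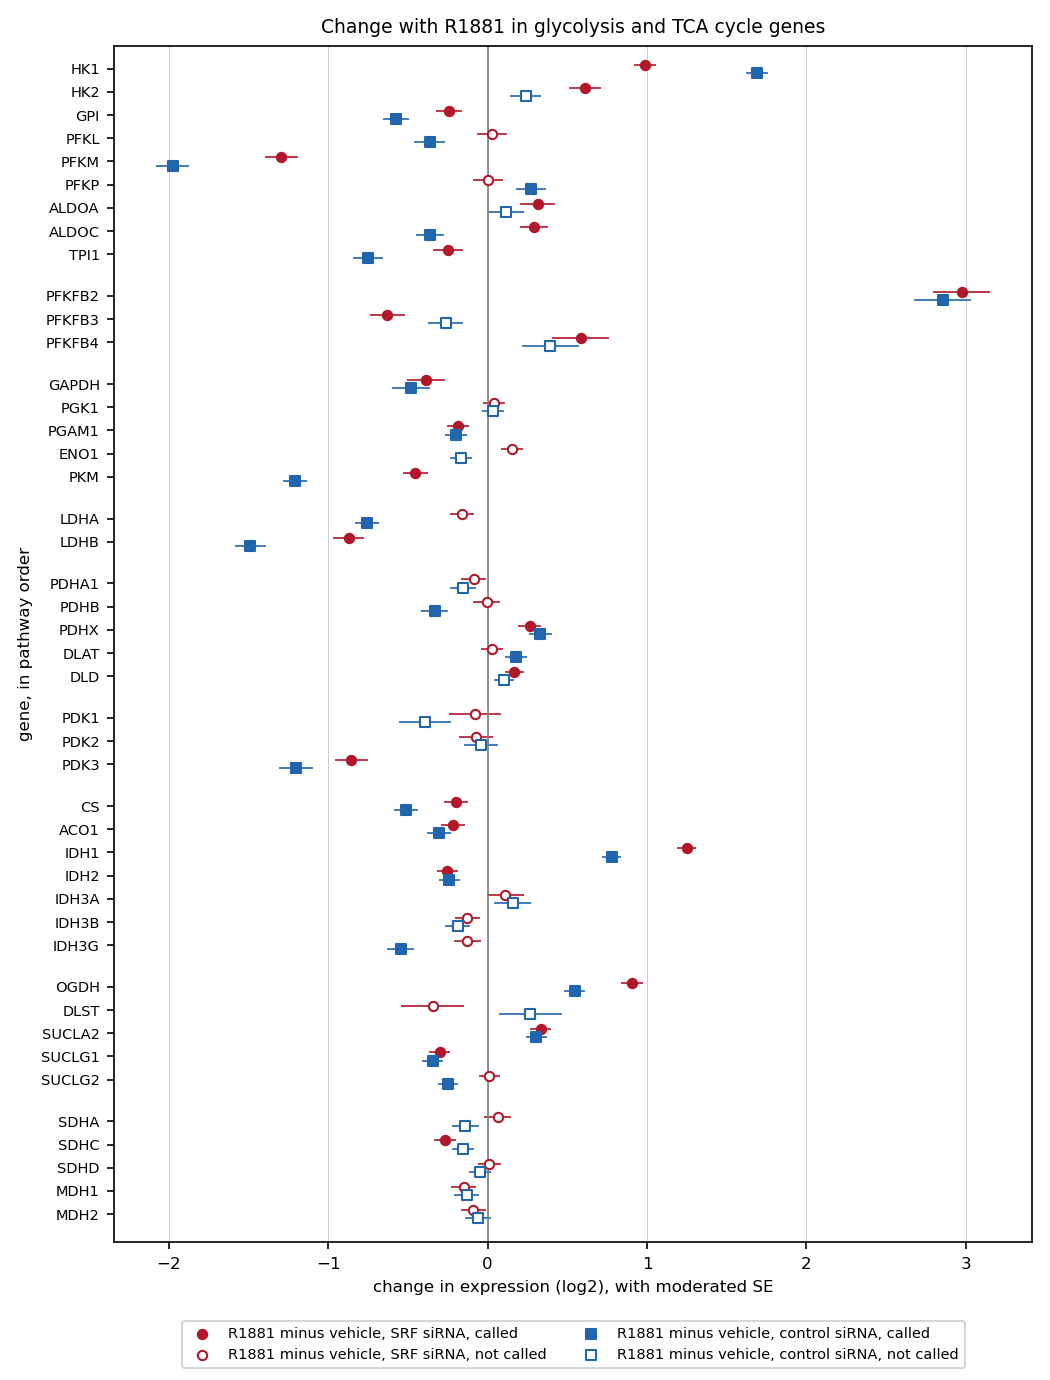
Change with R1881 (R1881 minus vehicle, log2, with moderated SE) of the 44 tested genes in pathway order, in SRF siRNA cells (red circles) and control siRNA cells (blue squares), filled where called. PFKFB2 and HK1 lie far to the right and PFKM and LDHB far to the left in both, and of the TCA cycle genes at the bottom IDH1 lies farthest from 0.

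HK1 and HK2 encode hexokinases that sit on the mitochondrial surface. In SRF-silenced cells HK1 was at 10.78, 10.69 and 10.80 with R1881 against 9.78, 9.81 and 9.73 in vehicle. In control cells it was at 11.12, 11.13 and 11.09 with R1881 against 9.38, 9.34 and 9.54 in vehicle. R1881 arrays were higher than vehicle arrays throughout, with changes of 0.99 ± 0.07 and 1.69 ± 0.07 (SE; adjusted p = 1.99e-07 and 1.15e-09). HK2, the inducible isoenzyme, was at 7.45, 7.44 and 7.65 with R1881 and 6.79, 7.05 and 6.86 in vehicle after silencing, a rise of 0.61 ± 0.10 (adjusted p = 0.000279). With control siRNA HK2 was at 6.81, 6.85 and 6.57 with R1881 and 6.54, 6.40 and 6.58 in vehicle, where the groups overlapped and the change of 0.24 ± 0.10 was not called (adjusted p = 0.0575). Its R1881 effect was not shown to differ between the siRNAs, with a difference of 0.37 (95% interval 0.06 to 0.68, adjusted p = 0.0784).

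The 3 phosphofructokinase subunit genes went different ways with R1881. PFKM, the muscle-type subunit, was at 8.75, 8.97 and 8.81 with R1881 against 10.32, 10.06 and 10.04 in vehicle in silenced cells. In control cells it was at 8.62, 8.44 and 8.62 with R1881 against 10.40, 10.52 and 10.69 in vehicle, so that R1881 arrays were lower by more than a log2 unit throughout. The changes were -1.29 ± 0.10 and -1.98 ± 0.10 (SE; adjusted p = 6.23e-07 and 1.01e-08). The liver-type subunit gene PFKL changed by 0.03 in silenced cells (not called, adjusted p = 0.828) and fell by 0.36 in control cells. The platelet-type subunit gene PFKP changed by 0.0003 in silenced cells (not called) and rose by 0.27 in control cells, where its groups overlapped.

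Of the genes for enzymes that set fructose 2,6-bisphosphate, PFKFB2 had the largest change with R1881 among the 44 members tested. It was at 7.19, 7.32 and 7.41 with R1881 and 4.66, 4.56 and 3.78 in vehicle after silencing. With control siRNA it was at 8.67, 8.62 and 8.80 with R1881 and 5.90, 5.89 and 5.73 in vehicle. The rises were 2.98 ± 0.18 and 2.86 ± 0.18 (SE; adjusted p = 4.84e-08 and 5.39e-08), and no R1881 array came near the vehicle arrays. The third silenced vehicle array lay under 4, close to background, where the size of a fold depends on the background estimate. The size also depended on the probe set. A dimmer PFKFB2 probe set rose by 0.86 in control cells (adjusted p = 0.00404) and was at 0.40 in silenced cells, not called (adjusted p = 0.142). PFKFB3, the isoenzyme with the highest kinase activity of the family, was at 3.95, 3.78 and 3.92 with R1881 and 4.22, 4.70 and 4.62 in vehicle after silencing. With control siRNA it was at 3.77, 3.83 and 3.86 with R1881 and 4.05, 4.15 and 4.06 in vehicle. It fell by 0.63 in silenced cells (adjusted p = 0.000435) and changed by -0.26 in control cells (adjusted p = 0.0544). All its values lay between 3.77 and 4.70, close to background, and the R1881 arrays of both siRNAs were all under 4. PFKFB3 thus passed the brightness filter through its vehicle arrays alone, so its fall with R1881 is no support for an effect. It is counted among the 14 genes that fell in silenced cells and the 4 that fell there by 1.5-fold or more. PFKFB4, a further family member with values of 4.49 to 5.62, rose by 0.58 in silenced cells (adjusted p = 0.0168) and changed by 0.39 in control cells (adjusted p = 0.0778).

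From triose phosphate isomerase to lactate dehydrogenase, every called gene fell with R1881 on the probe sets with the highest mean, 5 of 8 tested in silenced cells and 6 of 8 in control cells. Of all genes tested 27.7% fell in silenced and 33.8% in control cells. PKM and LDHB fell most among the 8. PKM, which encodes pyruvate kinase, was at 12.04, 11.95 and 11.97 with R1881 against 12.47, 12.47 and 12.38 in vehicle in silenced cells. In control cells PKM was at 11.24, 11.38 and 11.27 with R1881 against 12.36, 12.57 and 12.58 in vehicle. The changes were -0.45 ± 0.08 and -1.21 ± 0.08 (SE; adjusted p = 0.000351 and 5.62e-08), and no R1881 array reached the vehicle arrays. TPI1, which encodes triose phosphate isomerase, was at 12.50, 12.39 and 12.57 with R1881 against 12.91, 12.69 and 12.61 in vehicle after silencing. In control cells TPI1 was at 12.07, 12.16 and 12.06 with R1881 against 12.71, 12.95 and 12.90 in vehicle, and its changes were -0.25 ± 0.09 and -0.75 ± 0.09 (adjusted p = 0.0431 and 2.25e-05). GPI, the phosphoglucose isomerase gene, followed with -0.24 and -0.58, and PGAM1, a phosphoglycerate mutase gene, with -0.19 and -0.20, all called. PGK1 and ENO1, which encode phosphoglycerate kinase and enolase, were not called in either. Of the other PGK1 probe sets, 2 were called higher with R1881 in control cells, by 0.34 and 0.31 (adjusted p = 0.016 and 0.0189), and were at 0.21 and 0.18 in silenced cells, not called. GAPDH, often used as a loading control, changed by -0.39 ± 0.12 in silenced cells and by -0.48 ± 0.12 in control cells (adjusted p = 0.0155 and 0.0036). After quantile normalization the change in silenced cells was -0.09 and no longer called (adjusted p = 0.346).

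Lactate dehydrogenase converts pyruvate to lactate and back, and LDHA and LDHB encode its subunits. LDHB was at 11.54, 11.60 and 11.63 with R1881 against 12.67, 12.35 and 12.36 in vehicle in silenced cells. In control cells LDHB was at 10.54, 10.47 and 10.65 with R1881 against 11.91, 12.10 and 12.12 in vehicle, with changes of -0.87 ± 0.10 and -1.49 ± 0.10 (SE; adjusted p = 1.14e-05 and 7.03e-08). LDHB was thus lower with R1881 on all arrays of both siRNA groups. LDHA was at 12.99, 13.07 and 13.02 with R1881 and 13.30, 13.16 and 13.11 in vehicle after silencing, a change of -0.16 ± 0.07 that was not called (adjusted p = 0.095). In control cells it was at 11.87, 11.91 and 11.98 with R1881 and 12.57, 12.73 and 12.73 in vehicle, a change of -0.76 ± 0.07 (adjusted p = 2.97e-06). Neither LDHA comparison overlapped between its groups.

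**Figure D2:**
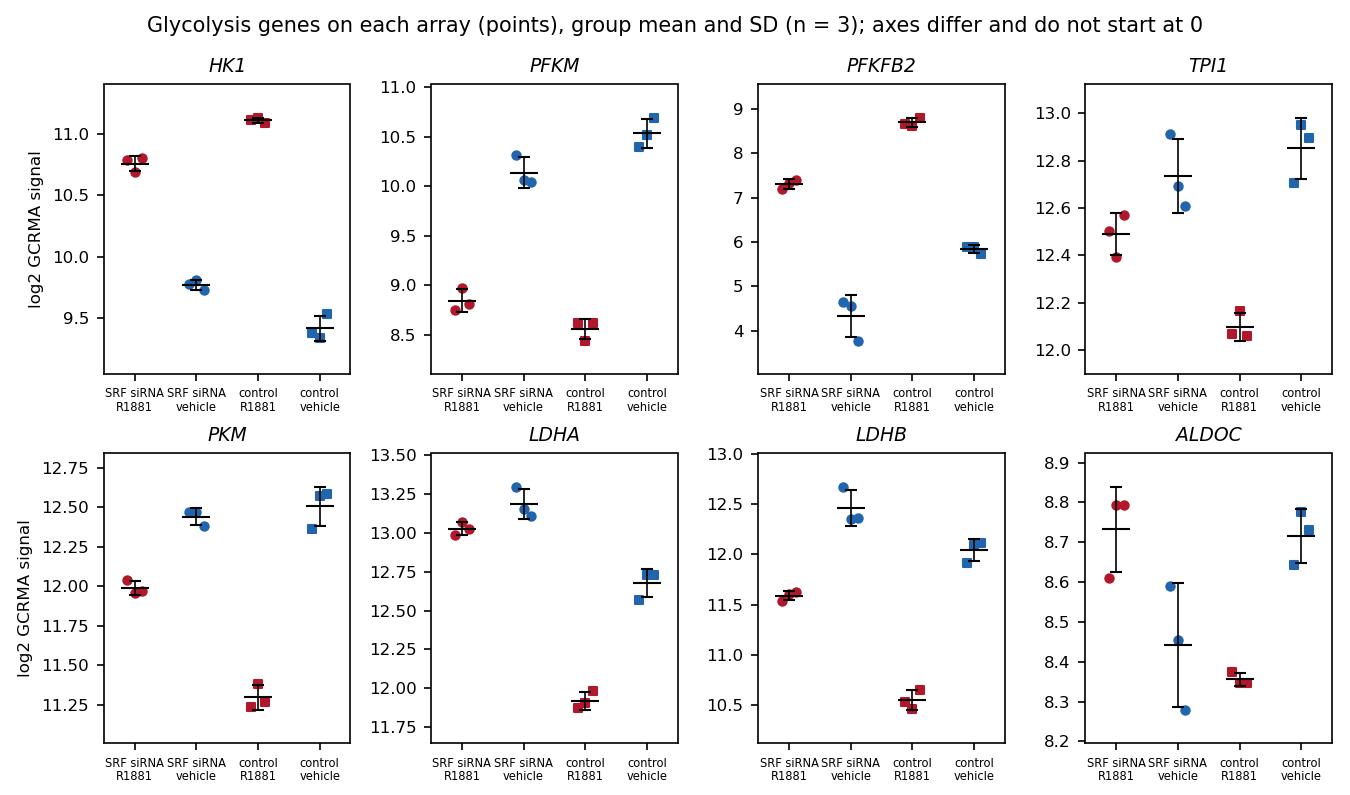
Log2 GCRMA signal of 8 glycolysis genes on each array (points; red for R1881, blue for vehicle, circles for SRF siRNA, squares for control siRNA), with the mean and SD of 3 arrays. Axes differ between panels and do not start at 0. For PKM, LDHA and LDHB the control siRNA arrays with R1881 are the lowest, below those with SRF siRNA and R1881.

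LDHA, LDHB and the pyruvate dehydrogenase kinase gene PDK1 were among the 9 members that rose at least 1.5-fold with SRF silencing in R1881. Their promoters are shown as examples, from RefSeq on GRCh38.p14, as the 250 bases before a transcript start. Those of the other members among the 9 (HK2, GPI, PKM, CS, IDH1 and SUCLG2) are not shown. The letters ACGTG are the core bound by HIF and related basic helix-loop-helix factors. Capitals mark ACGTG on either strand, so CACGT is marked too, and a CACGTG counts once on each strand.
LDHA (chr11:18394313-18394562, plus strand): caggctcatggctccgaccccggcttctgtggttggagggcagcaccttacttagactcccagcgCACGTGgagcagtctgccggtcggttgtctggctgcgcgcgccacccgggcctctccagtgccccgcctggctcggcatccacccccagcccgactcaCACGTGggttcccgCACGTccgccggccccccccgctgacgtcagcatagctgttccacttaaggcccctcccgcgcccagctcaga
LDHB (chr12:21657843-21658092, minus strand): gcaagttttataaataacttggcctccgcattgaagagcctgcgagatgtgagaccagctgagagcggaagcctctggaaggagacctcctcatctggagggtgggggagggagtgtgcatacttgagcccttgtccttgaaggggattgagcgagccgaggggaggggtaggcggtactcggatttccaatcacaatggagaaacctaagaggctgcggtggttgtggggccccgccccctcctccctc
PDK1 (chr2:172555840-172556089, plus strand): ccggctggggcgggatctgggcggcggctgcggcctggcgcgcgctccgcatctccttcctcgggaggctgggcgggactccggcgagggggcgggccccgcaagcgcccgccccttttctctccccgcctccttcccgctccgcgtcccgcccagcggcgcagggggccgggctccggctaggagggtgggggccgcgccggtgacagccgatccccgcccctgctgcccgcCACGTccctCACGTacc
The LDHA window held 5 matches and the PDK1 window 2, and these letters are not in the LDHB window. LDHA and PDK1 each have a further start whose window held none, so the windows shown for them are those with matches. Of the members not shown, PKM, CS and SUCLG2 had no match. GPI had 1, HK2 had 2 and 4 at different starts, and IDH1 had 1 at one start and 0 at another. In windows from 250 bases before to 50 after a start, ACGTG was in 23 of 72 member promoters (31.9%) and in 21.4% of all 35116 promoters. It was in 6 of the 13 promoters of those 9 members. The canonical palindromic androgen response element, searched on both strands, was in 0 member promoters and in 1 of all promoters. The CArG box, the sequence that SRF binds, was in 0 member promoters and in 1.29% of all. Promoters of 44 of the 47 genes were matched by symbol, without OGDH, PFKFB2 and SDHC.

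Of the genes at the entry into the TCA cycle, the kinase gene PDK3 changed most with R1881. PDK3, which encodes a pyruvate dehydrogenase kinase, was at 5.998, 6.08 and 6.19 with R1881 against 6.995, 6.78 and 7.06 in vehicle in silenced cells. In control cells it was at 6.43, 6.78 and 6.49 with R1881 against 7.83, 7.77 and 7.70 in vehicle. R1881 arrays were lower throughout, with changes of -0.85 ± 0.11 and -1.20 ± 0.11 (SE; adjusted p = 2.67e-05 and 9.55e-07). PDK1 and PDK2 were not called for R1881 with either siRNA, with changes of -0.08 and -0.39 for PDK1 and -0.07 and -0.04 for PDK2. The 5 genes of the complex itself (PDHA1 and PDHB of its first enzyme, DLAT, DLD and the binding protein PDHX) changed by -0.09 to 0.27 in silenced and by -0.33 to 0.33 in control cells. PDHX rose with both siRNAs, DLD in silenced cells and DLAT in control cells, and PDHB fell in control cells. Another PDHB probe set fell in silenced cells too, by 0.26 (adjusted p = 0.0244). Further DLAT probe sets were at -0.06 and -0.22 in control cells, and a further DLD probe set at 0.03 in silenced cells, none called.

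In the TCA cycle R1881 raised IDH1, OGDH and SUCLA2 with both siRNAs, 17.6% of 17 tested genes. Of all genes 25.5% rose in silenced and 26.9% in control cells. In silenced cells 5 of the 17 fell (29.4%, against 27.7% of all genes) and in control cells 6 (35.3%, against 33.8%), close to the shares of all genes. IDH1 encodes the cytosolic isocitrate dehydrogenase, which makes NADPH, and was at 13.51, 13.62 and 13.56 with R1881 against 12.28, 12.31 and 12.35 in vehicle in silenced cells. In control cells IDH1 was at 12.55, 12.59 and 12.58 with R1881 against 11.78, 11.81 and 11.79 in vehicle, and the rises were 1.25 ± 0.06 and 0.78 ± 0.06 (SE; adjusted p = 5.27e-09 and 2.82e-07). IDH2, its mitochondrial counterpart, fell by 0.25 and 0.24. OGDH, a subunit gene of the alpha-ketoglutarate dehydrogenase complex, was at 10.09, 9.997 and 10.02 with R1881 against 9.14, 9.12 and 9.13 in vehicle after silencing. In control cells OGDH was at 10.24, 10.29 and 10.18 with R1881 against 9.62, 9.80 and 9.65 in vehicle, with rises of 0.90 ± 0.07 and 0.55 ± 0.07 (adjusted p = 3.87e-07 and 2.28e-05). SUCLA2, the subunit of the ATP-forming succinyl-CoA synthetase, rose by 0.33 and 0.31. Citrate synthase (CS) fell by 0.20 and 0.51, the cytosolic aconitase gene ACO1 by 0.22 and 0.30, and SUCLG1 by 0.30 and 0.35. IDH3G and SUCLG2 fell in control cells, by 0.54 and 0.25, and were at -0.13 and 0.01 in silenced cells. The other NAD-dependent isocitrate dehydrogenase subunit genes IDH3A and IDH3B, and DLST of the alpha-ketoglutarate dehydrogenase complex, were not called with either siRNA, though another IDH3B probe set fell in control cells by 0.21 (adjusted p = 0.0215). Of the 5 tested genes from succinate to oxaloacetate, SDHC alone was called on the probe sets with the highest mean. SDHC, a succinate dehydrogenase membrane subunit gene, fell by 0.27 in silenced cells. Another SDHC probe set fell in control cells by 0.18 (adjusted p = 0.0479). MDH1 and MDH2, the malate dehydrogenase genes, changed by -0.15 to -0.06 in both and were not called. Another MDH2 probe set rose in silenced cells by 0.205 (adjusted p = 0.043).

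A measure of RNA integrity stands beside these counts. The array carries GAPDH control probe sets at both ends of the transcript, and their log2 difference, 3-prime minus 5-prime, was 0.49 ± 0.14 with R1881 and 0.36 ± 0.04 in vehicle in silenced cells (mean ± SD, n = 3 per group; two-sided exact permutation test, p = 0.3). In control cells it was 0.46 ± 0.02 with R1881 and 0.14 ± 0.09 in vehicle, with no overlap (exact permutation test, p = 0.1, which is the lowest p these group sizes permit). With this measure as a covariate, 6 members rose with R1881 in silenced cells in place of 11, while the share of all genes that rose was 20.5% in place of 25.5%. In control cells 4 members rose in place of 8, while the share of all genes that rose was 14.5% in place of 26.9%. The summed linear signal of the 7 luminal markers was 41879 to 42354 with R1881 in silenced cells, against 16161 to 16231 in vehicle. In control cells it was 66453 to 67369 with R1881 and 18397 to 19173 in vehicle. Such a sum follows its brightest markers and does not give the direction of each. Of the 7 luminal markers 4 rose and 2 fell with R1881 in silenced cells, and 4 rose and 3 fell in control cells. Of the markers of other cell types, the mesenchymal gene vimentin (VIM) changed with R1881 by 0.51 in silenced and -0.45 in control cells, both called, a difference of 0.96 (adjusted p = 0.000242). The basal marker ITGA6 rose by 0.47 in silenced cells and was at 0.03 in control cells, a difference of 0.45 (adjusted p = 0.0277). The part of these measures in the R1881 results and in their differences was not tested.

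The R1881 effect itself differed between the siRNAs for 11 of the 44 genes, 8 of them in glycolysis and 3 in the TCA cycle (25.0%, against 23.8% of all genes tested). For 10 genes it was higher in silenced than in control cells (22.7%, against 13.2% of all genes tested). For HK1 it was lower (2.27%, against 10.5%). At a change of 1.5-fold or more, 5 members were called higher (all genes 7.32%) and 1 lower (all genes 6.11%). The members' median difference was 0.11, and that of all genes 0.03. It was 0.0609 without SRF siRNA vehicle replicate 3, 0.166 without SRF siRNA vehicle replicate 1 and 0.164 without SRF siRNA R1881 replicate 1. PKM led, with a difference of 0.76 ± 0.11 (SE; adjusted p = 0.000395), so that its fall with R1881 was smaller after silencing. PFKM (0.68 ± 0.15, adjusted p = 0.00538), LDHB (0.62 ± 0.14, adjusted p = 0.00651) and TPI1 (0.51 ± 0.13, adjusted p = 0.0167) likewise fell less in silenced cells. LDHA, called for R1881 in control cells alone, differed by 0.60 ± 0.11 (adjusted p = 0.0017).

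ALDOC, which encodes the brain-type aldolase, was the gene whose direction turned. It was at 8.61, 8.79 and 8.79 with R1881 and 8.59, 8.45 and 8.28 in vehicle after silencing, a rise of 0.29 ± 0.09. With control siRNA it was at 8.38, 8.35 and 8.35 with R1881 and 8.64, 8.78 and 8.73 in vehicle, a fall of 0.36 ± 0.09. The difference was 0.65 ± 0.12 (SE; adjusted p = 0.0026), and the groups did not overlap with either siRNA. ENO1 was called for the difference (0.32, adjusted p = 0.0346) but for R1881 in neither state. In the TCA cycle IDH1 (0.47) and OGDH (0.36) rose more with R1881 after silencing, and IDH3G, a subunit gene of the NAD-dependent isocitrate dehydrogenase, differed by 0.42. On the other passing OGDH probe set the difference was 0.019 and not called (adjusted p = 0.978). In limma 0 of the 8 tested genes of the pyruvate dehydrogenase complex and its kinases were called, with differences of -0.15 to 0.35, and 2 had an unadjusted p under 0.05 (PDHB and PDK3). PFKFB2, which rose most with R1881, had a difference of 0.12 on its probe set with the highest mean (95% interval -0.44 to 0.68, adjusted p = 0.78). Another PFKFB2 probe set was called for the difference, at 0.50 (limma adjusted p = 0.0367), though its SRF siRNA vehicle arrays were all under 4.

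SRF silencing raised more of these genes than it lowered. Among the 44, SUCLG2, the subunit of the GTP-forming succinyl-CoA synthetase, rose most, 2.77-fold in R1881 and 2.31-fold in vehicle. PFKFB2 fell most, to 38.1% of its control siRNA signal in R1881 and to 35.1% in vehicle. In R1881 20 of the 44 genes rose (45.5%, against 33.6% of all genes tested) and 7 fell (15.9%, against 25.4%). In vehicle 18 rose (40.9%, against 30.7%) and 9 fell (20.5%, against 25.0%). At a change of 1.5-fold or more, 9 members were called higher (all genes 17.1%) and 1 lower (all genes 12.2%) in R1881. In vehicle 3 were called higher by that much (all genes 14.0%) and 2 lower (all genes 11.5%). The members' median change was 0.17 in R1881 (all genes 0.06) and 0.03 in vehicle (all genes 0.04). The sign of the median in vehicle was not stable. It was -0.0219 without SRF siRNA vehicle replicate 1, -0.0068 without control siRNA vehicle replicate 1 and 0.0853 without control siRNA vehicle replicate 2, and -0.0343 with the RNA integrity covariate described above. The 2 comparisons share no array. Under both treatments 15 genes rose, which is 15 of the 20 in R1881 and of the 18 in vehicle. Under both 5 fell (PFKFB2, PDK3, OGDH, SUCLA2 and SDHC), of the 7 in R1881 and the 9 in vehicle. The share of all genes tested that were called alike under both treatments was not counted, so these overlaps are not shown to be particular to the members. HK1 fell in R1881 but rose in vehicle, and PFKM and ALDOC rose in R1881 but fell in vehicle.

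**Figure D3:**
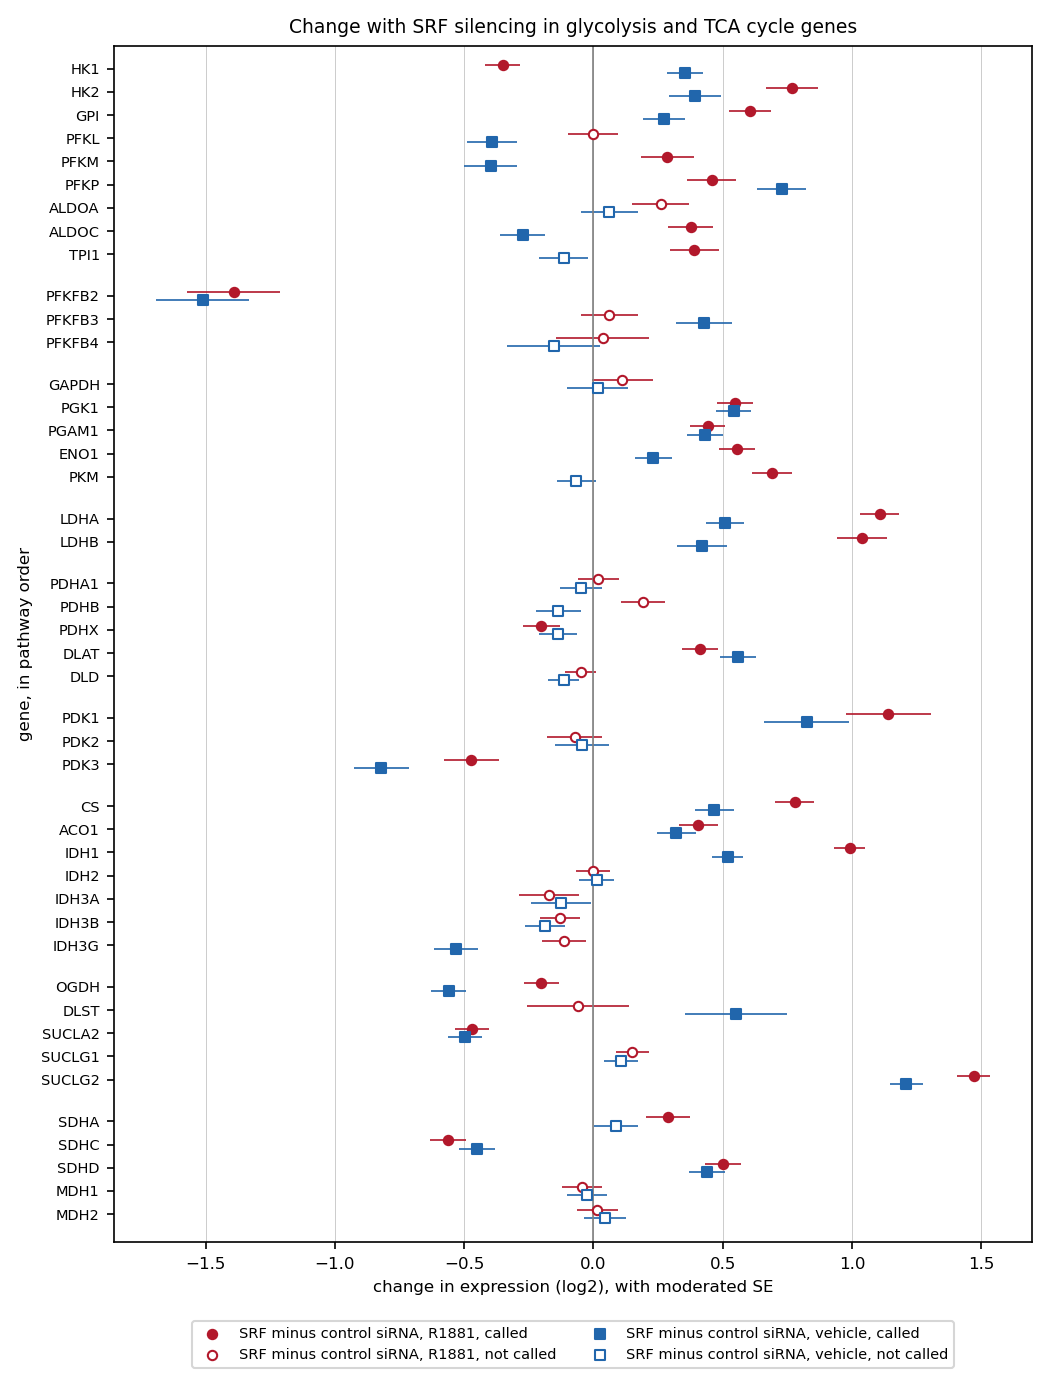
Change with SRF silencing (SRF minus control siRNA, log2, with moderated SE) of the 44 tested genes in pathway order, in R1881 (red circles) and in vehicle (blue squares), filled where called. SUCLG2 lies farthest right and PFKFB2 farthest left under both treatments, and LDHA, LDHB and PKM lie farther right in R1881 than in vehicle.

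The succinyl-CoA synthetase genes split. This TCA cycle enzyme pairs the subunit encoded by SUCLG1 with a partner from either SUCLG2 or SUCLA2, which sets whether GTP or ATP is made. SUCLG2 was at 11.35, 11.33 and 11.33 with SRF siRNA against 9.83, 9.86 and 9.89 with control siRNA in R1881. In vehicle it was at 11.41, 11.33 and 11.24 with SRF siRNA against 10.12, 10.08 and 10.15 with control siRNA, and the rises were 1.47 ± 0.06 and 1.21 ± 0.06 (SE; adjusted p = 4.99e-09 and 2.99e-08). SUCLA2 was lower on all silenced arrays. It was at 10.41, 10.54 and 10.46 with SRF siRNA against 10.95, 10.95 and 10.92 with control siRNA in R1881. In vehicle SUCLA2 was at 10.07, 10.16 and 10.17 with SRF siRNA against 10.71, 10.60 and 10.59 with control siRNA, and the changes were -0.47 ± 0.07 and -0.50 ± 0.07 (adjusted p = 6.63e-05 and 5.13e-05). SUCLG1, the shared subunit gene, was not called, at 0.15 (adjusted p = 0.0639) and 0.11 (adjusted p = 0.183). All 3 SUCLG2 probe sets that could be tested rose, by 1.44 to 1.47 in R1881 and by 1.15 to 1.23 in vehicle.

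PFKFB2 was lower on every silenced array than on the control arrays of its treatment, from the array values given for R1881. The changes were -1.39 ± 0.18 and -1.51 ± 0.18 in R1881 and in vehicle (SE; adjusted p = 3.29e-05 and 2.15e-05). The size depended on the probe set. In a fit of all 21526 passing probe sets, a further PFKFB2 probe set fell by 2.60 in R1881 (adjusted p = 8.04e-09). In vehicle its SRF siRNA arrays, at 3.41, 3.72 and 3.53, were all under 4, against 6.72, 6.59 and 6.63 with control siRNA, so its fall there (adjusted p = 6.83e-09) has no reliable size. Another probe set of the gene fell by 0.87 in R1881 (adjusted p = 0.004) and was at -0.41 in vehicle (adjusted p = 0.127). With R1881 the further probe set rose by 2.403 in control cells. Across the 27 members with several passing probe sets, 0 had probe sets called in opposite directions in limma, in any of the 5 comparisons. A probe set other than the one representing the gene was called, where the representing one was not, for 2 members with R1881 in silenced cells and 3 in control cells. With silencing this held for 2 members in R1881 and 4 in vehicle, and for the difference of R1881 effects for 3.

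Both lactate dehydrogenase genes rose with silencing, and the values behind this are those given above for each array. LDHA rose by 1.11 ± 0.07 in R1881 and by 0.51 ± 0.07 in vehicle (SE; adjusted p = 1.69e-07 and 0.000114). LDHB rose by 1.04 ± 0.10 and 0.42 ± 0.10 (adjusted p = 2.22e-06 and 0.00295). The silenced arrays lay above the control arrays under both treatments for both genes. PKM rose by 0.69 ± 0.08 in R1881 (adjusted p = 9.24e-06) and was at -0.07 ± 0.08 in vehicle (adjusted p = 0.493), where its groups overlapped. These R1881 comparisons use the same control R1881 arrays as the R1881 effect in control cells, so the 2 sets of values are not independent. Of the other lower glycolysis genes, PGK1 rose by 0.55 and 0.54, PGAM1 by 0.44 and 0.43 and ENO1 by 0.55 and 0.23, all called. GAPDH was not called, at 0.11 and 0.02 (adjusted p = 0.44 and 0.919), though after quantile normalization its change of 0.23 in R1881 was called (adjusted p = 0.0245).

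In upper glycolysis HK2, GPI and PFKP rose under both treatments. HK2 rose by 0.77 ± 0.10 in R1881 and 0.39 ± 0.10 in vehicle, from the array values given for R1881. GPI was at 12.02, 12.11 and 12.01 with SRF siRNA against 11.42, 11.47 and 11.43 with control siRNA in R1881. In vehicle GPI was at 12.45, 12.25 and 12.16 with SRF siRNA against 11.95, 12.01 and 12.09 with control siRNA, with changes of 0.61 ± 0.08 and 0.27 ± 0.08 (SE; adjusted p = 4.09e-05 and 0.0125). PFKP was at 8.73, 8.84 and 8.94 with SRF siRNA against 8.43, 8.24 and 8.46 with control siRNA in R1881. In vehicle PFKP was at 8.77, 8.86 and 8.87 with SRF siRNA against 8.28, 8.08 and 7.96 with control siRNA, with changes of 0.46 ± 0.10 and 0.73 ± 0.10 (adjusted p = 0.00128 and 4.42e-05). The silenced arrays of both genes lay above the control arrays under each treatment. The aldolase gene ALDOA was not called, at 0.26 and 0.06, but another of its probe sets fell in vehicle by 0.26 (adjusted p = 0.0484). TPI1 rose by 0.39 in R1881 and was at -0.12 in vehicle. PFKL fell by 0.39 and PFKFB3 rose by 0.43 in vehicle, and neither was called in R1881 (-0.0021 and 0.06).

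The pyruvate dehydrogenase kinase genes also split. PDK1 was at 8.05, 8.26 and 8.79 with SRF siRNA against 7.40, 7.20 and 7.09 with control siRNA in R1881. In vehicle PDK1 was at 8.64, 8.29 and 8.41 with SRF siRNA against 7.73, 7.57 and 7.55 with control siRNA. It rose by 1.14 ± 0.16 and 0.83 ± 0.16 (SE; adjusted p = 8.05e-05 and 0.00111), with no overlap. The other passing PDK1 probe set was at 0.66 and 0.51 and not called (adjusted p = 0.102 and 0.203). PDK3 fell by 0.47 ± 0.11 in R1881 and by 0.82 ± 0.11 in vehicle (adjusted p = 0.00205 and 3.81e-05). PDK2 was not called, at -0.07 and -0.04. In the complex DLAT, the acetyltransferase gene, rose by 0.41 and 0.56, and PDHX fell by 0.20 in R1881. PDHA1 was at 0.02 and -0.05 on its probe set with the highest mean, but another probe set of the gene rose by 0.61 and 0.69 (adjusted p = 0.000269 and 0.000131).

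At the head of the TCA cycle CS was at 11.85, 11.99 and 11.94 with SRF siRNA against 11.19, 11.12 and 11.14 with control siRNA in R1881. In vehicle CS was at 12.21, 12.14 and 12.04 with SRF siRNA against 11.54, 11.69 and 11.74 with control siRNA. It rose by 0.78 ± 0.08 and 0.47 ± 0.08 (SE; adjusted p = 3.10e-06 and 0.000234), and the groups of each treatment did not overlap. IDH1 rose by 0.99 ± 0.06 and 0.52 ± 0.06 (adjusted p = 6.88e-08 and 1.57e-05), so that its arrays with both SRF siRNA and R1881 were the highest of the 12. IDH2 was not called, at -0.0015 and 0.01 (95% intervals -0.15 to 0.14 and -0.13 to 0.16). ACO1 rose by 0.41 and 0.32. OGDH fell by 0.20 and 0.56, while its other passing probe set was at -0.59 and -0.61 and not called (adjusted p = 0.0545 and 0.0516). Among the succinate dehydrogenase genes, SDHC fell by 0.56 and 0.45, SDHD rose by 0.50 and 0.44, and SDHA rose by 0.29 in R1881 and was at 0.09 in vehicle, not called. The difference between the treatments was not called for SDHA (0.20, 95% interval -0.06 to 0.47, adjusted p = 0.264). MDH2 was at 0.02 and 0.04 on its probe set with the highest mean, while another rose by 0.93 and 0.78 (adjusted p = 1.34e-06 and 7.01e-06). IDH3G fell by 0.53 and DLST rose by 0.55 in vehicle (adjusted p = 0.000234 and 0.0315), and neither was called in R1881 (-0.11 and -0.06). MDH1 and the IDH3A and IDH3B subunit genes were not called under either treatment, but another IDH3B probe set fell in vehicle by 0.29 (adjusted p = 0.00445) and was at -0.09 in R1881.

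**Figure D4:**
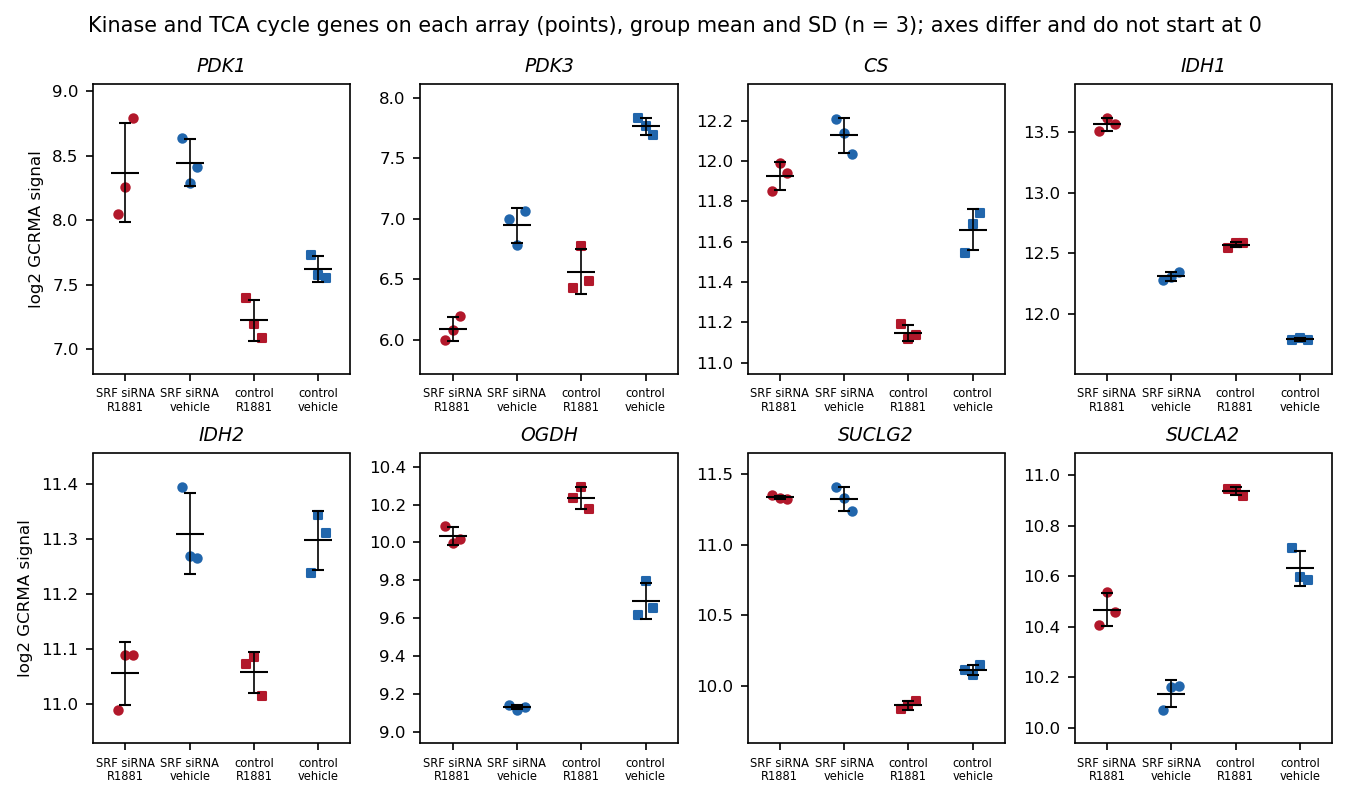
Log2 GCRMA signal of 2 kinase genes and 6 TCA cycle genes on each array (points; red for R1881, blue for vehicle, circles for SRF siRNA, squares for control siRNA), with the mean and SD of 3 arrays. Axes differ between panels and do not start at 0. SUCLG2 is higher and SUCLA2 lower on the SRF siRNA arrays of each treatment, and IDH1 is highest with SRF siRNA and R1881.

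Of the markers of other cell types, vimentin (VIM) moved with silencing, by 1.93 ± 0.09 in R1881 and 0.98 ± 0.09 in vehicle (SE; both called). It was the single mesenchymal marker of 3 above background, and CDH2 and ZEB1 stayed at or under 4 on all arrays. The summed linear signal of these 3 genes was 280 to 357 with SRF siRNA and R1881 and 90.7 to 96.7 with control siRNA and R1881. In vehicle it was 216 to 235 with SRF siRNA and 117 to 128 with control siRNA. The basal list, of which ITGA6 alone of 3 was above background, summed to 72.9 to 78.0 with SRF siRNA and R1881 and 57.8 to 59.1 with control siRNA and R1881. In vehicle the basal sums overlapped, at 50.8 to 63.9 with SRF siRNA and 55.7 to 60.7 with control siRNA. The luminal sums given with the R1881 results were lower with SRF siRNA under both treatments, but the 7 markers in them went both ways. With silencing 3 of them rose and 4 fell in R1881, and 2 rose and 4 fell in vehicle. The same GAPDH end-to-end measure was 0.36 ± 0.04 with SRF siRNA and 0.14 ± 0.09 with control siRNA in vehicle, with no overlap (mean ± SD, n = 3 per group; exact permutation test, p = 0.1, the lowest permitted). With it as a covariate, 11 members rose with silencing in vehicle in place of 18, while the share of all genes that rose was 18.5% in place of 30.7%. The part of these measures in the results was not tested.

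The neighbouring genes of these pathways were set beside the members in 9 lists from general knowledge, described by their calls and medians against those of all genes. Of all genes tested 25.5% rose and 27.7% fell with R1881 in silenced cells (median -0.03), and 26.9% and 33.8% in control cells (median -0.05). With silencing 33.6% rose and 25.4% fell in R1881 (median 0.06), and 30.7% and 25.0% in vehicle (median 0.04). Not all listed genes were tested, with 7 of 12 for transport, 9 of 23 isoenzymes and 12 of 18 for TCA entry and exit. Of 7 tested genes for glucose and lactate transport and pyruvate import, 3 rose and 1 fell with R1881 in silenced cells (median 0.27) and 4 rose and 1 fell in control cells (median 0.44). Of the genes that rose, the glucose transporter gene SLC2A3 lay above 4 on R1881 arrays alone. It passed the brightness filter through the arrays called higher, so its rise is no support for an R1881 effect. MPC2, a subunit gene of the mitochondrial pyruvate carrier, was at 12.88, 12.82 and 12.67 with R1881 against 11.21, 11.30 and 11.36 in vehicle in silenced cells. In control cells MPC2 was at 13.54, 13.59 and 13.59 with R1881 against 12.17, 12.19 and 12.21 in vehicle. It rose by 1.498 ± 0.07 and 1.38 ± 0.07 (SE; adjusted p = 5.16e-09 and 8.75e-09) and fell with silencing by 0.78 in R1881 and 0.90 in vehicle. Its partner MPC1 was called with R1881 in control cells alone, at 0.44, and at -0.23 in silenced cells, a difference of -0.68 (adjusted p = 0.00347). With silencing 3 rose and 2 fell in R1881 (median -0.04) and 2 rose and 2 fell in vehicle (median -0.0045).

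Of 9 further isoenzymes of glycolysis and glucose synthesis, 8 rose and 1 fell with R1881 in silenced cells (median 0.47) and 5 rose and 2 fell in control cells (median 0.27). With silencing 3 rose and 3 fell in R1881 (median -0.14) and 1 rose and 4 fell in vehicle (median -0.19). ENO2, the neuronal enolase gene, was at 5.39, 5.20 and 5.53 with SRF siRNA and 4.07, 3.21 and 4.09 with control siRNA in R1881. In vehicle ENO2 was at 7.17, 7.21 and 7.11 with SRF siRNA and 5.67, 5.27 and 5.64 with control siRNA. It rose with silencing by 1.58 ± 0.20 and 1.64 ± 0.20 (SE) and changed with R1881 by -1.79 in silenced and -1.73 in control cells, all called. Its control R1881 arrays lay at or under the edge of background, so the sizes of the changes that use them, 1.58 and -1.73, depend on the background estimate. The mitochondrial glycerol phosphate dehydrogenase gene GPD2 fell with silencing by 1.21 and 1.41. Of 7 pentose phosphate genes 2 rose and 1 fell with R1881 in silenced cells (median 0.0023) and 2 rose and 3 fell in control cells (median -0.19). With silencing 5 rose in R1881 (median 0.41) and 4 rose and 1 fell in vehicle (median 0.41), led by the ribose phosphate isomerase gene RPIA at 1.21 and 1.03. Of 6 glycogen genes 5 rose with R1881 in silenced cells (median 0.54) and 4 rose in control cells (median 0.32). With silencing 2 rose and 4 fell in R1881 and 1 rose and 4 fell in vehicle (medians -0.29 and -0.35), with the phosphoglucomutase gene PGM1 at -1.14 and -0.93.

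Of 12 genes for entry into and exit from the TCA cycle, 8 rose and 3 fell with R1881 in silenced cells (median 0.47) and 6 rose and 3 fell in control cells (median 0.31). ME1, the cytosolic malic enzyme gene, rose by 1.31 and 1.60, and the glutamate dehydrogenase gene GLUD1 by 1.18 and 1.53. With silencing 3 rose and 6 fell in R1881 (median -0.24) and 1 rose and 6 fell in vehicle (median -0.19), with GLUD1 at -1.04 and -0.69. Of 4 genes of pyruvate dehydrogenase regulation and lipoylation, 1 rose and 2 fell with R1881 in silenced cells and 3 fell in control cells (medians -0.33 and -0.43). With silencing 2 rose in R1881 and 2 rose and 1 fell in vehicle (medians 0.26 and 0.16). PDP1, the phosphatase gene that opposes the kinases, was at 10.26, 10.28 and 10.25 with SRF siRNA against 9.04, 8.77 and 8.93 with control siRNA in vehicle, a rise of 1.35 ± 0.08 (SE; adjusted p = 6.32e-08), and rose by 0.53 in R1881. Of 4 succinate dehydrogenase assembly genes 1 rose with R1881 in silenced cells and 2 rose and 1 fell in control cells (medians 0.07 and 0.18), and with silencing 1 rose and 1 fell in R1881 and 2 rose and 1 fell in vehicle (medians -0.12 and -0.01). Of 9 zinc transporter genes 7 rose and 1 fell with R1881 in silenced cells and 5 rose and 2 fell in control cells (medians 0.38 and 0.42), and with silencing 3 rose and 2 fell in R1881 and 3 rose and 2 fell in vehicle (medians 0.07 and 0.03).

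Among 15 regulators of glycolysis and mitochondria, 3 rose and 5 fell with R1881 in silenced cells (median -0.11) and 5 rose and 4 fell in control cells (median -0.14). With silencing 9 rose and 4 fell in R1881 (median 0.26) and 8 rose and 2 fell in vehicle (median 0.31). EPAS1, of this list, lay above 4 on SRF siRNA arrays alone. It passed the brightness filter through those arrays, so its values are no support for a rise with silencing. MYC, which encodes a transcription factor known to act on LDHA and other glycolysis genes, was at 10.83, 10.97 and 10.76 with R1881 against 11.72, 11.59 and 11.62 in vehicle in silenced cells. In control cells MYC was at 7.50, 7.75 and 7.61 with R1881 against 10.85, 11.05 and 10.94 in vehicle. The changes were -0.79 ± 0.09 and -3.33 ± 0.09 (SE), and their difference was 2.54 ± 0.12 (adjusted p = 7.71e-08). TXNIP, which encodes an arrestin-like protein that restrains glucose uptake, changed by -1.60 in silenced and -2.35 in control cells, and rose with silencing by 1.84 in R1881 and 1.09 in vehicle. HIF1A, the oxygen-sensing transcription factor gene, rose in all 4 comparisons, by 0.69 to 0.76. CAMKK2, which encodes an androgen-induced kinase upstream of AMPK, rose with R1881 by 0.91 ± 0.09 in silenced and 1.48 ± 0.09 in control cells, a difference of -0.57 ± 0.12 (adjusted p = 0.00601). KLK3, the prostate-specific antigen gene, rose with R1881 by 3.54 and 3.26. The difference of R1881 effects was called higher for 3 and lower for 3 of the 15 regulators (of all genes 13.2% and 10.5%).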

How the data were processed

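Total RNA of LNCaP cells (3.5 µg per sample, per the labels' protocols) was labelled as biotinylated cRNA and hybridised to 12 Affymetrix arrays of 54675 probe sets. The deposited values are log2 signals, normalized by the authors with GCRMA, per the submitters' processing notes. GCRMA models background from probe sequence and quantile-normalizes the arrays, so levels near background are compressed and a global shift is removed. The genome build and the separateness of the cultures are not given in the sources used here. Groups came from the labels.

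Control probe sets (62) and those with several gene symbols (1801) or none (11721) were left out, gene names being those of the platform annotation. A gene took the probe set with the highest mean among those above log2 4 on at least 3 of 12 arrays, which left 10265 genes. limma 3.58.1 in R 4.3.3 (lmFit, contrasts.fit, eBayes) fitted a means model of 4 groups to all 12 arrays for 5 comparisons, including the difference of R1881 effects. Calls used a Benjamini-Hochberg adjusted p under 0.05. The scripts were tested on simulated data. Values on every array are given for members called and changed at least 1.5-fold in any comparison, and the other members by their changes. RNA integrity was compared by exact two-sided permutation tests. Alternatives covered the filter, a floor, the probe set choice, scaling, the variance model, the arrays fitted, a replicate block, an RNA integrity covariate, the threshold and leaving out each array. The members and lists were chosen with earlier results of these data known. Python 3.11.15 with matplotlib 3.10.9 drew the plots. Some markers and genes of the lists are not reported here.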

Additional observations from a re-analysis of the deposited data

Results flagged for a closer look

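For 11 members R1881 acted differently in silenced cells than in control cells, by limma's test of the difference with p-values adjusted over 10265 genes. That is 25.0% of the 44 tested, close to the 23.8% of all genes. The difference was higher for 10 (22.7%, against 13.2% of all genes) and lower for 1 (2.27%, against 10.5%). In glycolysis the difference, silenced minus control, was -0.70 for HK1, which rose less with R1881 after silencing (adjusted p = 0.000315). It was 0.68 for PFKM (adjusted p = 0.00538), 0.51 for TPI1 (adjusted p = 0.0167) and 0.76 for PKM (adjusted p = 0.000395), which fell less after silencing. LDHA differed by 0.60 (adjusted p = 0.0017) and LDHB by 0.62 (adjusted p = 0.00651). ALDOC differed by 0.65 (adjusted p = 0.0026), with opposite called directions, and ENO1 by 0.32 (adjusted p = 0.0346). In the TCA cycle IDH1 differed by 0.47 (adjusted p = 0.00175), OGDH by 0.36 (adjusted p = 0.0187) and IDH3G by 0.42 (adjusted p = 0.0267). The other passing OGDH probe set differed by 0.019 and was not called (adjusted p = 0.978). With 3 arrays in each group, no array was tested for standing apart.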

How the results depend on the processing

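Each alternative changed a single setting. Among the changes of members called and changed by at least 1.5-fold none reversed, 468 changes with an array left out and 497 under the other alternatives kept their direction and side of the threshold, and 3 lost the call, all for PDK1. The 497 include the alternative that required 1.5-fold, which is the rule that picked these changes and so could not alter them. Other fits left the size of a change as it was, so that direction could not reverse and only the call could move. These were the stricter adjusted p, the variance model, the replicate block and the fit of only the arrays compared. Leaving out an array of a group not compared was likewise such a fit, so the 468 include many of this kind. With the probe set of largest interquartile range, PDK1 changed with silencing by 0.66 in R1881 (adjusted p = 0.0969) and by 0.51 in vehicle (adjusted p = 0.194). With the RNA integrity measure (GAPDH, 3-prime minus 5-prime) as a covariate it changed by 0.47 in vehicle (adjusted p = 0.0976). Smaller changes were less stable, such as that of GAPDH with R1881 in silenced cells, which was -0.09 after quantile normalization (adjusted p = 0.346). That covariate also gave 6 members higher with R1881 in silenced and 4 in control cells, and 11 higher with silencing in vehicle, where 20.5%, 14.5% and 18.5% of all genes were higher. Its medians were -0.22 for R1881 in control cells (all genes -0.1279), 0.18 for the difference (all genes 0.0728) and -0.034 for silencing in vehicle (all genes -0.0075).

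The median with silencing in R1881 was 0.26 with a minimum log2 of 6, 0.24 with the mean of probe sets, 0.29 with the probe set of largest interquartile range and 0.24 after quantile normalization. In vehicle it was 0.10 with the mean of probe sets and 0.15 with the largest interquartile range. Quantile normalization gave -0.22 for R1881 in control cells and 0.16 for the difference. With values under 4 set to 4, 2 members were lower for the difference. With only the arrays compared, 9 fell with R1881 in silenced cells. At an adjusted p under 0.01, 7 rose and 8 fell with R1881 in silenced cells, and 6 were higher for the difference. The calls of all 10265 genes, either way, moved too. For R1881 in silenced cells they were 5453 in the main fit, 5020 with only the arrays compared and 4086 at 0.01. For the difference they were 2441 in the main fit, 2551 with values under 4 set to 4 and 1367 at 0.01. Requiring a change of at least 1.5-fold left 5 higher and 4 lower with R1881 in silenced cells, 3 and 6 in control cells, and 5 higher for the difference. It left 9 higher and 1 lower with silencing in R1881, and 3 and 2 in vehicle. The cause of these shifts was not tested.

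Leaving out each array in turn gave 8 to 12 higher and 8 to 14 lower with R1881 in silenced cells (median -0.07 to -0.03) and 6 to 9 and 17 to 21 in control cells (median -0.22 to -0.14). For the difference it gave 8 to 12 and 1 to 2 (median 0.061 to 0.17). With silencing it gave 19 to 22 and 5 to 7 in R1881 (median 0.15 to 0.21) and 17 to 18 and 8 to 10 in vehicle (median -0.022 to 0.085). At a change of 1.5-fold or more, 5 members were called higher (all genes 11.7%) and 4 lower (all genes 12.1%) in silenced cells. In control cells 3 were called higher by that much (all genes 13.9%) and 6 lower (all genes 17.1%). Without SRF siRNA vehicle replicate 1, 8 fell with R1881 in silenced cells and 2 were lower for the difference, and without SRF siRNA R1881 replicate 1, 9 fell. Of all 10265 genes 5072 and 5048 were called either way for R1881 in silenced cells without these arrays, against 5453 with all arrays.

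The replicate numbers did not pair the arrays. Same-numbered arrays of different groups correlated at -0.21 to 0.10 in their deviations from group means, and 4 of 12 arrays correlated best with their own number. With the replicate number as a block, 11 rose and 11 fell with R1881 in silenced cells and 7 and 18 in control cells. The block gave 9 and 1 for the difference, 19 and 7 with silencing in R1881, and 18 and 9 in vehicle, and it changed no call among members called and changed by at least 1.5-fold. Of all 10265 genes it called 5316 with R1881 in silenced and 6148 in control cells, in place of 5453 and 6225. It called 2200 for the difference in place of 2441. With silencing it called 5921 in R1881 and 5585 in vehicle, in place of 6058 and 5717. Among smaller changes it lost the calls of TPI1, PGAM1 and CS with R1881 in silenced cells, DLAT with R1881 in control cells, ENO1 for the difference and PFKM with silencing in R1881 (adjusted p = 0.0509 to 0.0704). The number of arrays, 3 in each group, limits the precision, and signals near 4 are close to background.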
